A study of Homo sapiens with 58 samples.

Results

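POLR2A encodes RPB1, the largest and catalytic subunit of RNA polymerase II. Over all libraries most HuR CLIP tags on this gene lay in one peak at its last bases and one in its 5'UTR, the latter filled mostly by the arsenite fraction libraries. After arsenite the 5'UTR peak rose 10.7-fold in the nuclear fraction. In the cytoplasmic fraction it was 11.6-fold higher in arsenite than in mock libraries. The table of peaks held 6 peaks named POLR2A (ENSG00000181222) among 387214 peaks, with 898 of its 7887093 tags. The gene was chosen by the arsenite against mock difference of its 5'UTR peak in the cytoplasmic fraction, so every POLR2A value of cytoplasmic arsenite against mock below is a description without a test. The nuclear fraction and the input and streptavidin-enriched libraries were not used in that choice. They carry the tests, but the members were chosen with earlier results of these data known. Nuclear and cytoplasmic libraries may also share cells, so the nuclear test may not be independent of the choice.

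RPB1 holds the active site of RNA polymerase II and a long C-terminal tail of repeats, whose phosphorylation marks the passage from initiation through pausing to elongation. HuR, the product of ELAVL1, is an RNA-binding protein that prefers uridine-rich and AU-rich sequence, is known mostly for binding in 3'UTRs and introns, and moves between nucleus and cytoplasm. In CLIP, ultraviolet light fixes the protein to the RNA it touches, and the recovered fragments, counted here as tags, show where it was bound. Tags on a gene depend both on how much of its RNA is present and on how often HuR sits on it, and these data do not separate them, nor fewer cells from less RNA per cell.

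All 58 libraries came from Huh-7.5, a hepatocellular carcinoma cell line, with HuR precipitated by antibody 3A2 after crosslinking with doses of 400 and 200 mJ/cm2. Cells were mock treated or received 0.5 mM sodium arsenite, an oxidative stressor, for 45 min. The 12 fraction libraries came from WT cells with no APEX reaction, 3 for each pairing of nuclear or cytoplasmic fraction with mock or arsenite. The other 46 came from cells carrying the peroxidase APEX, which tags nearby proteins with biotin, in the lines APEX-NLS, APEX-NES and APEX-G3BP1, all of them with the APEX reaction (biotin phenol and hydrogen peroxide). Of these, 17 are input libraries and 29 are enriched libraries, which had a streptavidin capture in addition to the antibody step. RNase I was used at more than one dilution, not stated for each library. The labels do not say whether each line is 1 clone, whether replicates were separate cultures, or whether the nuclear and cytoplasmic libraries of one number came from the same cells. The p-values therefore measure the spread between these libraries, which may be technical. All fraction libraries belong to the library set JL0380 and all APEX libraries to JL0361, JL0388 or JL1024, so fractionation, the WT genotype and the set cannot be told apart.

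Depth differed widely. Tags in peaks numbered 235471 to 673322 in the fraction libraries, while the inputs held 1353 to 484305 and the enriched libraries 519 to 86419. Values are given in CPM, tags per 1000000 of each library's total, and 1 tag was worth 0.568 to 1.46 CPM in the fractions but up to 58.6 CPM in an input and 214.5 CPM in an enriched library. Among the enriched libraries of JL0388, 5 pairs within a group could not be told apart from sampling noise (p 0.059 to 0.79 from resampled tags). For APEX-G3BP1 mock libraries 3 and 4 another pair, thinned to their depth, could not be told apart either (p 0.249), so this pair stayed separate. Counting each of the other 4 pairs as 1 sample is given for the enriched limma fit and the flagged results. The permutation tests counted every library singly. The labelled cell type was checked on markers of liver cells. ALB, AFP, APOB, SERPINA1, FGB and TF, 6 of the 8 listed, had tags in all 12 fraction libraries, with AFP at a mean of 741.8 CPM, while APOA1 and TTR had no peak. Of the markers of other cell types, COL1A1, COL1A2, DCN, CD3E and CDH5 had no peak, PECAM1 and VWF had 5 tags each, and PTPRC and LYZ averaged 2.12 and 6.54 CPM in the fractions.

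The gene spans 30251 bases of the plus strand of chromosome 17, from 7484366 to 7514616 (GRCh38.p14, RefSeq gene 5430). Coordinates of peaks are those of the table, which does not say whether they count from 0 or 1, and each peak is 20 bases long. The 5'UTR peak (7484543 to 7484563) starts 177 bases after the RefSeq start and held 298 tags from 22 libraries, 33.2% of the gene's tags, of which 93 came from the nuclear and 147 from the cytoplasmic arsenite libraries. Beside 5'UTR, its final annotation, the table lists "downstream 10K" and "Other" for this peak. In nuclear mock libraries the intron peaks held more tags than the 5'UTR peak (19 against 7). The peak at the other end (7514579 to 7514599) held 504 tags from 42 libraries, 56.1% of the total. The table leaves this peak unannotated although it names it POLR2A. It ends 17 bases before the RefSeq gene end and is called the 3'-end peak here. The 4 intron peaks, starting at 7493726, 7495580, 7498660 and 7504182, held 24, 9, 55 and 8 tags, and the table marks the first 3 of them as coding exon with retained intron. No peak of the gene was annotated as plain CDS or 3'UTR. All 6 lie inside the RefSeq gene on its strand, and the only other peak in that span lies on the opposite strand.

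**Figure D1:**
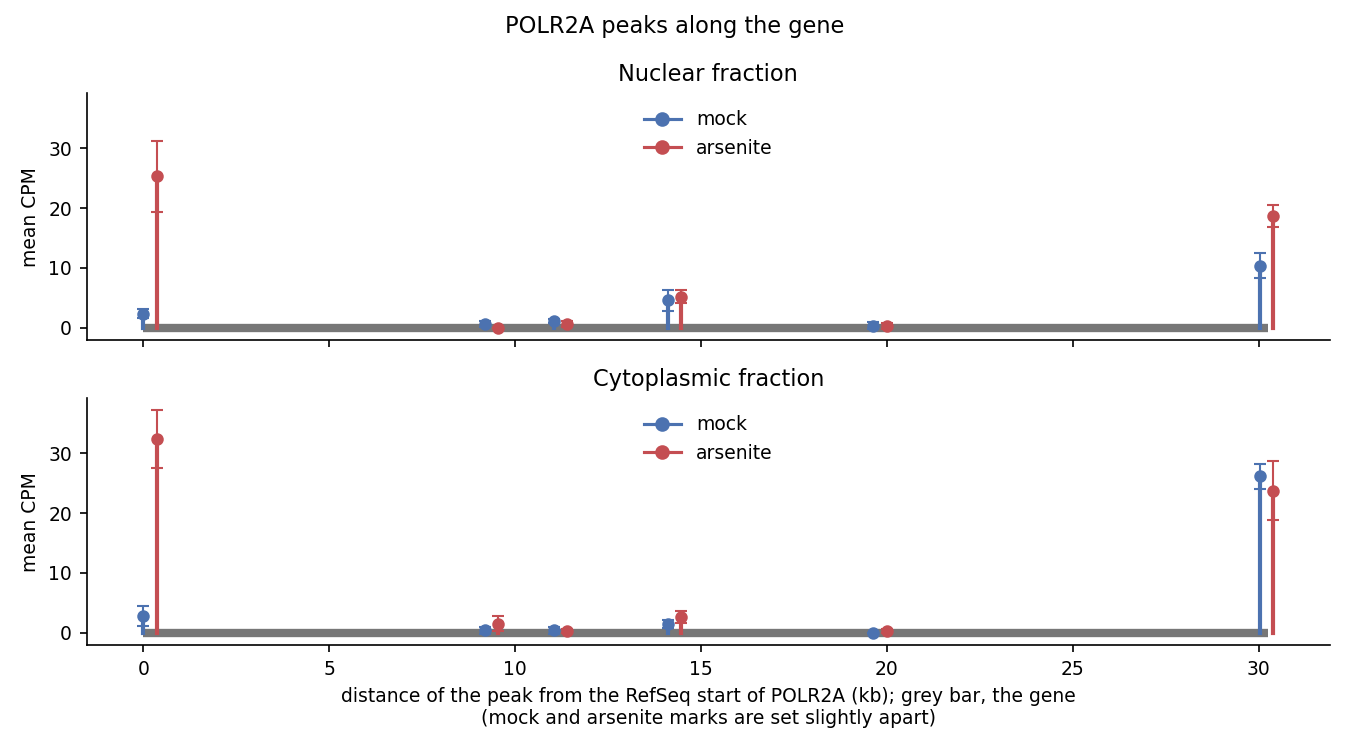
Mean CPM of the 6 POLR2A peaks (y axis, error bars SD over 3 libraries) against their distance from the RefSeq start of the gene in kilobases (x axis), in the nuclear fraction (top) and the cytoplasmic fraction (bottom), mock in blue and arsenite in red. The 5'UTR peak is low in both mock groups and reaches 25.3 CPM in nuclear and 32.5 CPM in cytoplasmic arsenite libraries, while the 3'-end peak is present in all 4 groups.

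In the nuclear fraction the 5'UTR peak rose after arsenite. Mock libraries 1, 2 and 3 held 1, 3 and 3 tags (1.46, 2.73 and 2.90 CPM), and arsenite libraries held 40, 29 and 24 tags (32.0, 23.2 and 20.8 CPM). All 3 arsenite libraries lay far above all 3 mock libraries, whose counts were at or below 3 tags. The means were 2.36 ± 0.787 and 25.3 ± 5.92 CPM (SD, n = 3 each), a 10.7-fold difference. Over summed tags, 93 of 3653374 against 7 of 2821792, the ratio was 10.3, with a 95% interval from 4.79 to 26.2 that covers counting error only. On the log2(value + 2.28 CPM) scale, which understates the change of low peaks, the difference was 2.57 ± 0.29 (SE, 95% interval 1.94 to 3.19, limma adjusted p 0.0035). Among the 200232 nuclear peaks tested, 372 (0.186%) passed the threshold of 0.05, and the POLR2A 5'UTR peak ranked 61st by p. The edgeR quasi-likelihood test on recovered tags called it too (log2 difference 3.30, adjusted p 4.4e-05). The call was lost when mock library 1 (limma adjusted p 0.27), mock library 2 (0.054), arsenite library 1 (0.13) or arsenite library 2 (0.14) was left out, with log2 differences of 2.40 to 2.63 in those fits. A pseudocount 4 times larger gave 1.57 and tags in peaks as the library total 1.45, both called. The latter fit also changed the pseudocount, to 3.0e-05 of tags in peaks from 2.28e-06 of the library total. Its lower difference mixes both changes. Without a pseudocount, the fold of means was 10.4 with tags in peaks as the total. Fitted as a gene region, meaning all peaks of one gene in one annotation class, the same tags gave a limma adjusted p of 4.4e-05, lost only without arsenite library 3 (0.054).

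The other POLR2A peaks of the nuclear fraction did not pass the test. The 3'-end peak had 6, 14 and 10 tags in the mock libraries (8.74, 12.7 and 9.66 CPM) and 22, 22 and 24 in the arsenite libraries (17.6, 17.6 and 20.8 CPM). The mean was 10.4 ± 2.09 in mock and 18.7 ± 1.84 CPM in arsenite (SD, n = 3 each), 1.80-fold apart. The log2 difference was 0.74 ± 0.25 (SE, 95% interval 0.19 to 1.28, limma adjusted p 0.21). Intron peak 3, the fullest of the intron peaks, had 3, 7 and 3 tags in mock and 8, 6 and 5 in arsenite, with overlapping groups (log2 difference 0.15, limma adjusted p 0.87). Summed over all 4 intron peaks, the mock libraries averaged 6.60 ± 1.37 and the arsenite libraries 6.001 ± 1.75 CPM (SD, n = 3 each). That intron sum differed by -0.11 on the log2 scale (95% interval -0.76 to 0.54, limma adjusted p 0.88). Of the 6 peaks, 4 had tags in enough nuclear libraries to be tested, and intron peaks 1 and 4, with 0 to 1 tag in every nuclear library, did not.

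In the cytoplasmic fraction, which chose the gene, the 5'UTR peak held 4, 3 and 1 tags in the mock libraries (4.25, 3.06 and 1.05 CPM) and 52, 49 and 46 in the arsenite libraries (37.5, 27.9 and 32.0 CPM). The means were 2.79 ± 1.62 and 32.5 ± 4.86 CPM (SD, n = 3 each), 11.6-fold apart. By its log2 difference of 2.82 the peak stood first of the 193897 cytoplasmic peaks fitted, of which 1473 (0.76%) were called. The 3'-end peak held 24, 24 and 27 tags in mock (25.5, 24.4 and 28.5 CPM) and 36, 48 and 26 in arsenite (26.0, 27.3 and 18.1 CPM), with overlapping groups and means of 26.1 ± 2.08 and 23.8 ± 4.98 CPM (SD, n = 3 each). Intron peak 3 went from 1.40 ± 0.630 to 2.59 ± 1.04 CPM (SD, n = 3 each), on 1 to 2 tags a library in mock and 2 to 5 in arsenite. Among the 6 POLR2A peaks, the 5'UTR peak had the widest gap between the cytoplasmic groups.

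**Figure D2:**
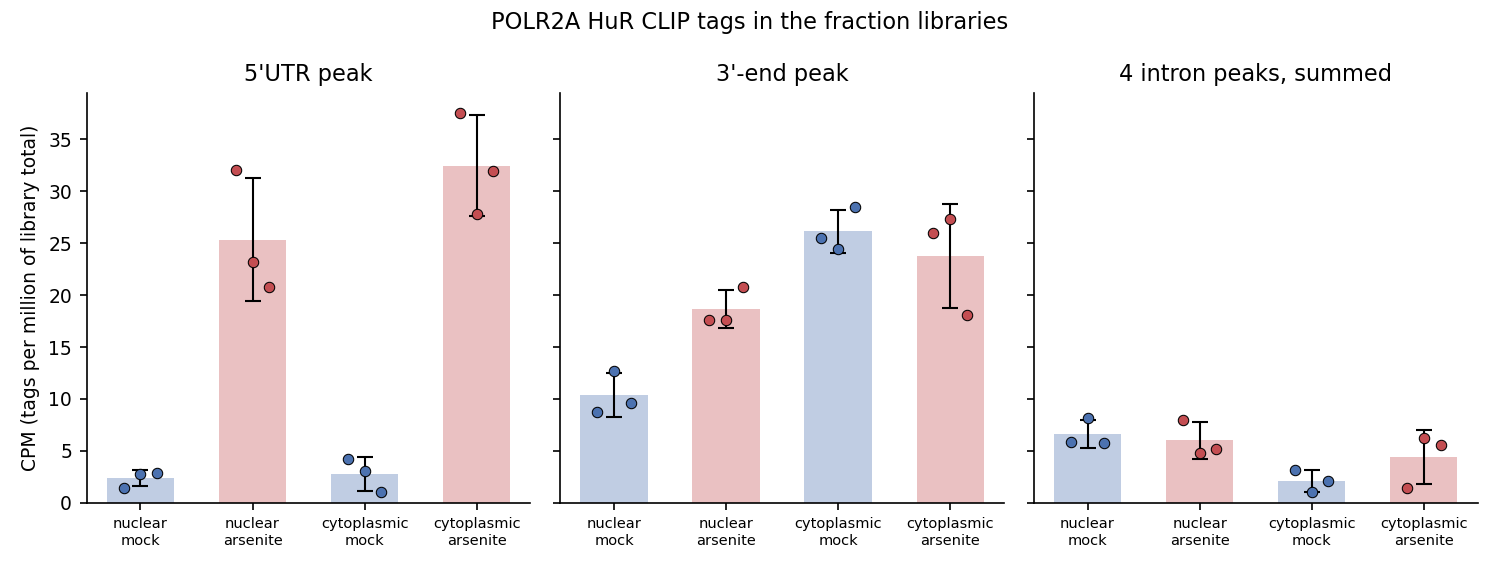
CPM of the 5'UTR peak, the 3'-end peak and the sum of the 4 intron peaks (y axes, same scale) in the nuclear and cytoplasmic fractions, mock in blue and arsenite in red; points are single libraries, bars are means and error bars are SD (n = 3 each). The 5'UTR peak is high in all 6 arsenite libraries and near the level of a few tags in all 6 mock libraries, and the 3'-end peak is lowest in nuclear mock.

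The difference between the ends of the gene can be read within each library, where depth and library total cancel. In the nuclear mock libraries 9.09%, 11.5% and 15.8% of POLR2A tags fell in the 5'UTR peak, and in the nuclear arsenite libraries 55.6%, 50.9% and 44.4% did. The Wilson 95% intervals of the mock libraries reached up to 37.7%, 29.0% and 37.6% and those of the arsenite libraries down to 44.1%, 38.3% and 32.0%. The group means were 12.1% ± 3.39 and 50.3% ± 5.58 (SD, n = 3 each). In the cytoplasm they were 8.98% ± 5.01 and 53.5% ± 7.08 (SD, n = 3 each). Put as a ratio, the nuclear mock libraries had 0.167 to 0.3 tags in the 5'UTR peak for each tag in the 3'-end peak, and the nuclear arsenite libraries 1.0 to 1.82. Over the whole gene, nuclear tags went from 19.3 ± 3.90 to 50.01 ± 6.65 CPM and cytoplasmic tags from 31.0 ± 2.29 to 60.7 ± 4.71 CPM (SD, n = 3 each), mock to arsenite.

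**Figure D3:**
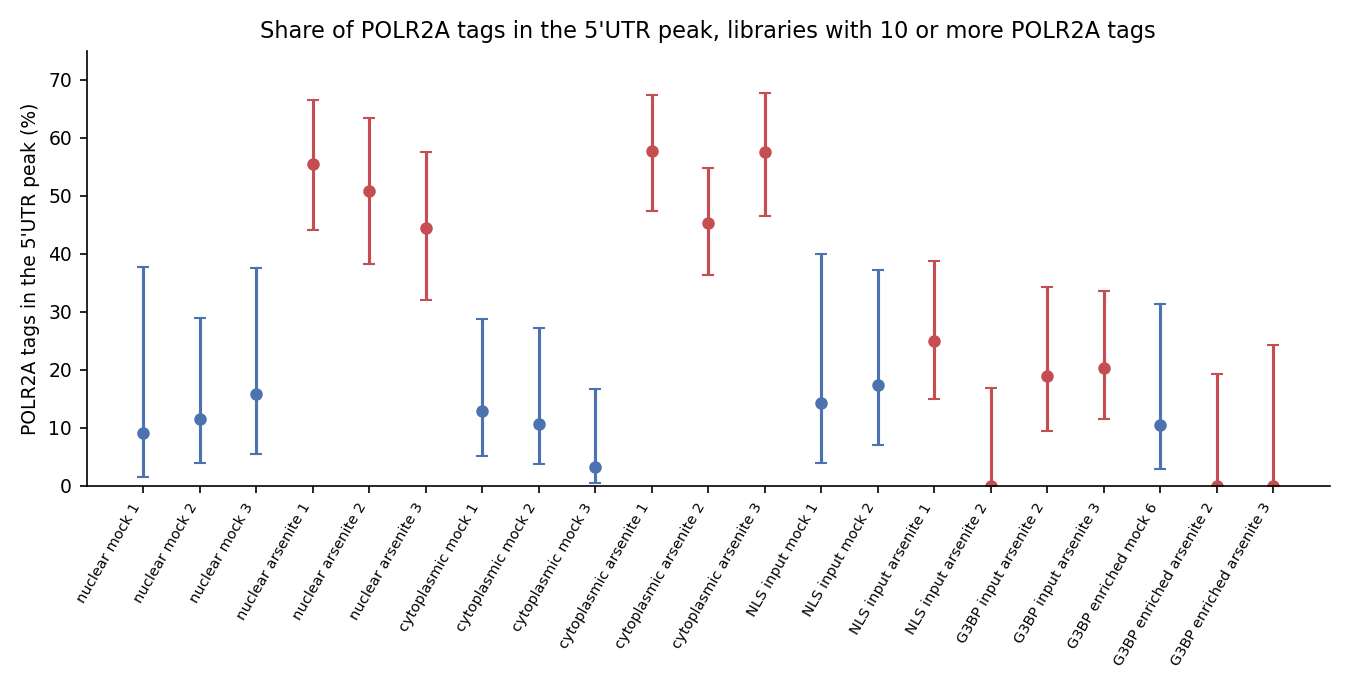
Percentage of POLR2A tags in the 5'UTR peak (y axis) in each library with at least 10 POLR2A tags (x axis), mock in blue and arsenite in red, with Wilson 95% intervals. The 6 arsenite fraction libraries lie between 44.4% and 57.8%, above every mock library and above the 3 arsenite input libraries that hold 5'UTR tags, which lie between 18.9% and 25.0%.

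In mock cells the 3'-end and intron peaks leaned to different fractions, and no test compared the positions. Regions of all genes leaned likewise, by median log2 difference, nuclear minus cytoplasmic, in mock. It was -0.98 for 3'UTR regions (10.8% above 0), -0.57 for unannotated regions (14.6%) and 0.48 for intron regions (81.7%). In mock cells the 3'-end peak was 2.52-fold higher in the cytoplasmic than in the nuclear fraction. Its log2 difference, nuclear minus cytoplasmic, was -1.18 ± 0.26 (SE, limma adjusted p 0.043), in a comparison that called 4437 of 157168 peaks (2.82%). This call was marginal. It was lost with a smaller or larger pseudocount (adjusted p 0.053 and 0.058), without a filter on low values (0.066), with tags in peaks as the library total (0.086) and with the replicate block (0.077). It was also lost without nuclear mock library 2 or 3 (0.14 and 0.18) or cytoplasmic mock library 1, 2 or 3 (0.14, 0.082 and 0.18). With tags in peaks as the total, a fit that also has the changed pseudocount, the log2 difference was -0.73. Fitted as a gene region the 3'-end peak had an adjusted p of 0.0024 and kept its call in all 12 alternative and left-out fits. After arsenite the 3'-end peak was 1.27-fold higher in the cytoplasm, a log2 difference of -0.30 (95% interval -0.80 to 0.20, limma adjusted p 0.74; 608 of 236332 peaks, 0.257%, called). Whether the nuclear to cytoplasmic difference itself changed with arsenite was not tested, since it rests on the contrast that chose the gene.

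The intron peaks leaned the other way in mock cells. Summed as the intron region of POLR2A, they were at 6.60 ± 1.37 CPM in the nucleus and 2.11 ± 1.09 CPM in the cytoplasm (SD, n = 3 each). The log2 difference of 1.04 ± 0.36 (SE) gave a limma adjusted p of 0.046, where 6155 of 21245 gene regions (29.0%) were called. In arsenite cells the sums were 6.001 ± 1.75 and 4.42 ± 2.60 CPM (SD, n = 3 each), which overlapped (log2 difference 0.38, limma adjusted p 0.63; 1187 of 23772 regions, 4.99%, called). The mock call was lost under 3 of 6 alternative settings (adjusted p up to 0.063), with log2 differences from 0.47 to 1.62 over the 6, and when any library but cytoplasmic mock library 1 was left out (up to 0.14). Intron peak 3 alone, with 13 nuclear and 4 cytoplasmic mock tags, gave a log2 difference of 0.87 (limma adjusted p 0.13). The 5'UTR peak, whose cytoplasmic libraries chose it, had cytoplasmic over nuclear ratios of 1.18 in mock and 1.28 in arsenite, with overlapping libraries in both.

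Among the 1804 peaks of the table in 5'UTRs, POLR2A ranked higher with arsenite. By mean CPM it was 232nd in nuclear mock and 18th in nuclear arsenite libraries, and 192nd and 8th in the cytoplasm. In the nuclear test, 1128 of these peaks entered, 12 were called higher and 3 lower (1.33%, against 0.186% over all peaks), and the median log2 difference was 0.04 against 0.01 over all peaks. POLR2A ranked 5 among the 1128 by log2 difference. Of the 788 peaks of 5'UTRs fitted in both fractions, 3 had a log2 difference over 2 in both, and these names were read off after the values were seen. They were POLR2A, TBX3, a T-box transcription factor (2.66 nuclear, limma adjusted p 0.0069), and SEPTIN2, a GTP-binding cytoskeletal protein (2.39 nuclear, limma adjusted p 0.070).

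**Figure D4:**
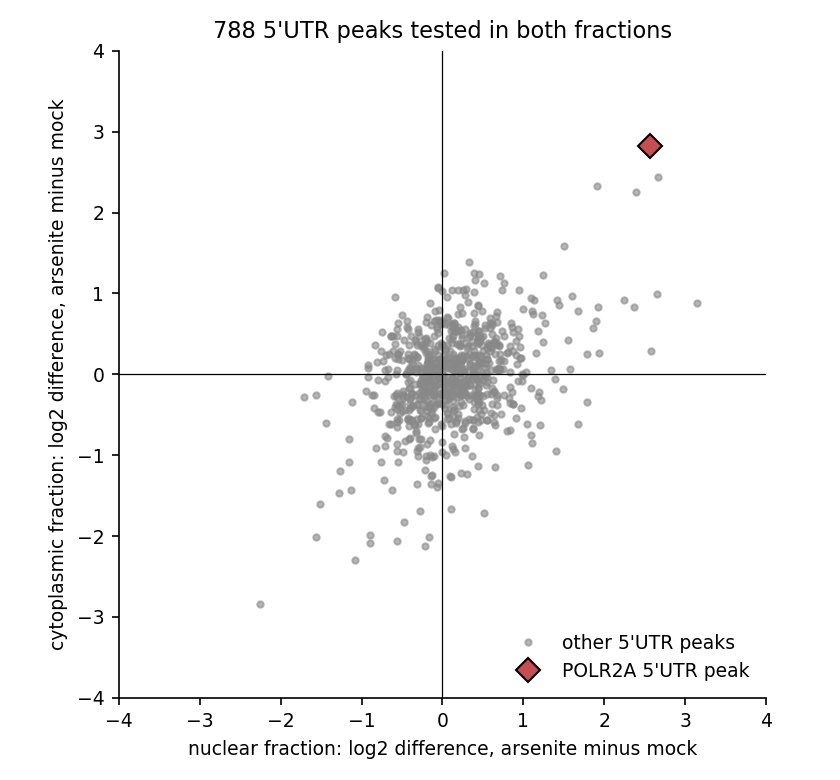
Log2 difference, arsenite minus mock, in the nuclear fraction (x axis) and in the cytoplasmic fraction (y axis) for the 788 peaks of 5'UTRs fitted in both, with POLR2A as a red diamond at 2.57 and 2.82. Most peaks lie near 0 on both axes, and POLR2A stands highest on the y axis, the contrast that chose it.

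The 5 peaks whose pattern over the 12 fraction libraries was most like that of the POLR2A 5'UTR peak were sought among 9717 named peaks with at least 50 tags there, by Pearson correlation of log2 values. The correlation mostly follows the treatment, since the libraries fall into mock and arsenite groups, and is given as a description. The closest was a peak of CYB5B, a cytochrome b5 of the outer mitochondrial membrane (r = 0.990, annotated as coding exon with retained intron), at 0.625 and 9.02 CPM in nuclear mock and arsenite. It was followed by 3'UTR peaks of CREBZF, a leucine zipper transcription factor (r = 0.969, 11.1 and 44.6 CPM), and of JUN, an immediate early gene and AP-1 subunit (r = 0.968, 2.68 and 52.2 CPM). An intron peak of CDK13, a kinase of the RPB1 tail, came next (r = 0.961, 3.47 and 8.71 CPM), and then a 3'UTR peak of TXNRD1, the cytosolic thioredoxin reductase (r = 0.954, 2.06 and 5.76 CPM). The input libraries, which took no part in this ranking, showed the JUN peak at 1.13 CPM over all mock tags and 14.3 CPM over all arsenite tags. For TXNRD1 these pooled values were 0.483 and 4.53 CPM, for CYB5B 0.804 and 3.65, for CDK13 0.644 and 3.02, and for CREBZF 5.95 and 6.54. The sums mix the library sets unequally, JL0361 giving 2333048 of the arsenite total and 230542 of the mock total. Their spread between libraries was not computed, and none of these differences was tested in the pooled values.

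The input libraries of the APEX lines asked whether the 5'UTR gain recurs in unfractionated cells. Their POLR2A tags were few, and neither test of the 5'UTR peak passed. Over all inputs, 31 tags of 7949490 in arsenite stood against 8 of 6215562 in mock, 3.90 against 1.29 CPM, a ratio of 3.03 with a 95% counting interval from 1.36 to 7.63 that leaves out the spread between libraries. The sets are unequally mixed in these sums: JL0361 gave 2333048 of the arsenite total but 230542 of the mock total. Within JL0361, JL0388 and JL1024 the ratio was 1.68, 4.26 and 0. The ratio of library means was 2.53, and 1.87 with tags in peaks as the total. Between libraries the mean difference, arsenite minus mock within line and library set, was 1.46 CPM (exact permutation p 0.2625 against either direction, 640 arrangements, 8 mock and 9 arsenite libraries, smallest p the data allow 0.0125). Across the 7 combinations of line and set, arsenite was higher in 3, lower in 1 and equal in 3. The limma fit gave a log2 difference of 0.33 ± 0.34 (SE, 95% interval -0.37 to 1.03, adjusted p 0.72). No tag of the peak was found in 9 of the 17 inputs, and the difference between the input and the fraction values was not tested. In these libraries limma called 0 of 17091 peaks (0.0%), 1614 at an unadjusted p under 0.05, and edgeR called 276.

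The sets differed. In JL0361, all APEX-G3BP1, mock libraries 1 and 2 held 0 and 1 tags and arsenite libraries 1, 2 and 3 held 0, 7 and 10 tags (0, 6.31 and 8.29 CPM). Library 1 of both treatments was so shallow that 3 tags would be 151.9 and 175.9 CPM. In JL0388 the APEX-NLS inputs had 2 tags in mock and 12 in arsenite (1.24 and 5.23 CPM), the APEX-NES inputs 1 and 2 tags, and the APEX-G3BP1 inputs none. In JL1024 the APEX-NLS inputs had 4 tags in mock (1.53 CPM) and 0 in arsenite, which in that library allows up to 1.68 CPM, and the other 4 inputs had none. Within sets the differences were 2.49 CPM in JL0361, 2.58 in JL0388 and -0.51 in JL1024 (exact permutation p 0.6, 0.5 and 1.0), where no set alone can reach p 0.05 and the smallest p each allows is 0.1, 0.5 and 1.0. The APEX-NLS arsenite input of JL1024 held 18 tags in the 3'-end peak, 10.1 CPM, so its lack of 5'UTR tags is not a lack of POLR2A tags.

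The 3'-end peak of the inputs held 117 arsenite and 40 mock tags (14.7 and 6.44 CPM over summed tags). The ratio of these sums was 2.29, while within JL0361, JL0388 and JL1024 it was 1.58, 1.77 and 1.46. The mean difference within line and set was 1.64 CPM (exact permutation p 0.80, 17 libraries), higher with arsenite in 5 of 7 combinations and lower in 2. Its sign was not stable: it was -37.9 with tags in peaks as the total, -0.035 with the replicate block and -4.76 within JL1024. Leaving out 1 library gave -1.19 without APEX-G3BP1 mock library 1, -0.035 without APEX-G3BP1 arsenite library 3, -0.32 without either APEX-NES library 2 and 6.32 without APEX-G3BP1 mock library 4. The limma log2 difference was 0.44 (95% interval -1.02 to 1.91, adjusted p 0.83). In the inputs with at least 10 POLR2A tags, the 5'UTR peak took 14.3% and 17.4% of the gene's tags in APEX-NLS mock libraries 1 and 2. Arsenite gave 25.0% and 0% in APEX-NLS libraries 1 and 2, with Wilson 95% intervals of 14.9% to 38.8% and 0% to 16.8%. It gave 18.9% and 20.4% in APEX-G3BP1 libraries 2 and 3. All of these shares lie below those of the 6 arsenite fraction libraries, but the Wilson intervals overlap. Every input share above 0% has an upper limit (33.6% to 39.9%) over the lower limit of nuclear arsenite library 3 (32.0%), and that of the 25.0% (38.8%) also exceeds those of nuclear and cytoplasmic arsenite libraries 2 (38.3% and 36.3%).

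**Figure D5:**
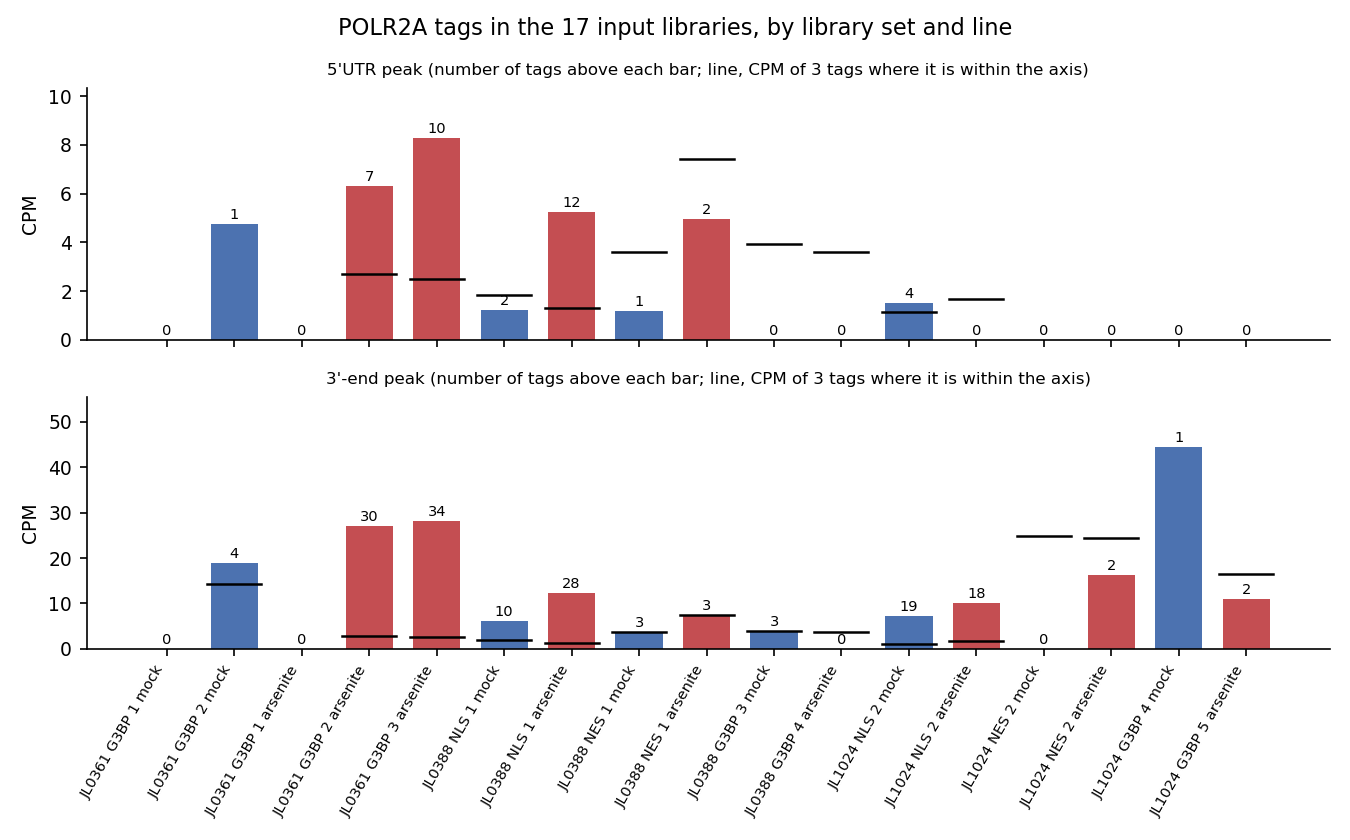
CPM of the 5'UTR peak (top) and the 3'-end peak (bottom) in each of the 17 input libraries (x axis, ordered by library set, line and treatment), mock in blue and arsenite in red, with the number of tags above each bar and a line at the CPM of 3 tags where it fits the axis. Arsenite bars of the 5'UTR peak stand in JL0361 and JL0388 and none in JL1024, and several bars of both treatments rest on 1 or 2 tags.

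The enriched libraries carried almost no 5'UTR tags of POLR2A. Only 4 were found in 29 libraries, 2 in APEX-G3BP1 mock library 6 (2.12 CPM) and 2 in the shallow APEX-G3BP1 arsenite library 5 (71.3 CPM). All 16 enriched libraries of APEX-NLS and APEX-NES held 0, and over their summed tags no direction with arsenite can be read. The exact permutation test of the difference gave p 1.0 over 29 libraries and could not go below 0.5. The 3'-end peak, the only POLR2A peak with enough tags for the limma fit, held 42 tags in arsenite and 22 in mock. Its log2 difference was 0.46 ± 0.54 (SE, 95% interval -0.61 to 1.54, adjusted p 0.66), where 11 of 715 peaks (1.54%) were called, and 0.75 (adjusted p 0.52) with the near-identical pairs counted once. The mean CPM went the other way, by -1.22 within line and set (exact permutation p 0.88, 29 libraries, pairs not merged), and the sets disagreed, with 13.1 in JL0361, -11.7 in JL0388 and 3.30 in JL1024. The mean difference turned to 3.38 CPM without APEX-G3BP1 mock library 3, 0.39 without APEX-NES mock library 1, 0.35 without APEX-G3BP1 arsenite library 5 and 1.03 with tags in peaks as the total. In APEX-G3BP1 arsenite libraries 2 and 3, which held 16 and 12 POLR2A tags, none was in the 5'UTR peak, with Wilson upper limits of 19.4% and 24.2%.

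RNA polymerase II acts with many partners, whose genes were read in the same table by gene region. Of the 11 other subunits of the enzyme, POLR2G, POLR2I and POLR2L had no peak, and 10 regions of 6 genes were tested in the nuclear fraction, where 1361 of 22212 regions (6.13%) were called, and 54 to 910 with 1 library left out. The one called was the 3'UTR of POLR2D, part of the subunit pair that forms the stalk of the enzyme, at 19.7 ± 3.26 CPM in mock and 44.9 ± 4.03 in arsenite (SD, n = 3 each, log2 difference 1.11, limma adjusted p 0.0017). The median log2 difference of the 10 regions was 0.10, against 0.03 over all regions. Of the largest subunits of the other polymerases, POLR1A and POLR3A, 1 of 5 regions rose, the 3'UTR of POLR3A (2.42 to 15.1 CPM, limma adjusted p 0.0054).

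Among genes of pausing and elongation, 5 of 44 nuclear regions rose and 1 fell after arsenite, with a median of 0.15 (all regions 6.13% called, median 0.03). Of all 6001 nuclear 3'UTR regions 830 (13.8%) rose and 27 fell. Among those that rose were the 3'UTRs of CCNT1, the cyclin of P-TEFb, a kinase that releases paused polymerase (10.2 to 23.6 CPM, log2 difference 1.16, limma adjusted p 0.033), CDK12, a kinase of the RPB1 tail (8.72 to 20.4 CPM), CCNK, its cyclin (1.23 to 6.56 CPM), and ELL2, an elongation factor (11.1 to 26.0 CPM). The region that fell was the intron of NELFCD, a subunit of the pausing factor NELF (14.2 to 4.71 CPM, limma adjusted p 0.023). Among the general initiation factors 2 of 43 rose, the 3'UTR and the 5'UTR of GTF2A1, a subunit of TFIIA (4.36 to 20.2 CPM and 2.36 to 9.85 CPM), with a median of -0.12. Of 15 regions of genes for polymerase assembly and import, none was called by limma.

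In the cytoplasmic fraction, where 3047 of 22884 regions (13.3%) were called (480 to 2977 with 1 library left out), the counts were 1 higher of 13 for the other polymerase II subunits, 6 higher and 3 lower of 42 for pausing and elongation, 2 higher of 38 for initiation, 0 of 6 for the other polymerases and 0 of 15 for assembly. Of all 6685 cytoplasmic 3'UTR regions 1245 fell and 63 rose. The list regions that fell there were the 3'UTR of CCNT1 and the 3'UTR and 5'UTR of HEXIM1, the inhibitor of P-TEFb. The HEXIM1 5'UTR peak went from 22.3 to 11.4 CPM (log2 difference -0.84, limma adjusted p 0.018). It is the most tagged 5'UTR region of the list and lay at 7.61 and 7.62 CPM in nuclear mock and arsenite.

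Between the fractions in mock cells, where 29.0% of all regions were called, 1 of 9 regions of the other polymerase II subunits was higher in the nucleus, the intron of POLR2B, the second largest subunit. Lower in the nucleus were 2, the 3'UTRs of POLR2D (log2 difference -2.25, limma adjusted p 3.7e-06) and POLR2K (-1.23). Of all 6090 3'UTR regions in this comparison, 3006 were lower in the nucleus and 44 higher. Of all 7707 intron regions, 1931 were higher and 137 lower. For pausing and elongation 8 of 42 were higher and 9 lower, for initiation 5 and 2 of 36, for the other polymerases 0 and 1 of 6, and for assembly 1 and 0 of 12. With arsenite, where 4.99% of all regions were called, the counts higher and lower in the nucleus were 0 and 1 of 14, 1 and 1 of 44, 0 and 0 of 42, 0 and 0 of 6, and 1 and 0 of 15, in the same order.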

How the data were processed

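HuR CLIP libraries of Huh-7.5 cells were read from the authors' combined table of peaks, deposited as coverage signal, in which each library's values are whole multiples of 1 step, read here as 1 tag over that library's total. Per the submitters' processing notes, Bowtie2, SAMtools, bedtools and HOMER were used with GRCh38.p14; versions and roles are not given in the sources used here. Of 395471 lines, 8257 repeats were dropped. Dividing by that step recovered whole tags for 100% of values (tolerance 0.1 tag).

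Differences were fitted over all peaks, or gene regions, with limma 3.58.1 in R 4.3.3 on log2(CPM + 2.28), for features whose libraries with tags numbered no fewer than the smaller group's libraries, with Benjamini-Hochberg adjustment and a threshold of 0.05. On the recovered tags, edgeR 4.0.16 called 755 nuclear peaks, 2800 cytoplasmic, 276 input, 3 enriched, and 4400 and 1549 between fractions in mock and arsenite. Input and enriched fits kept line and library set as terms. Single-peak permutation tests were exact, two-sided and within line and set (Python 3.11.15). Scripts were tested on simulated data.

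Named genes are the POLR2A peaks, the 5 peaks most correlated with the 5'UTR peak, and called members of the lists of polymerase II subunits, other polymerases, pausing and elongation, initiation, and assembly and import; TBX3 and SEPTIN2 fall outside this rule and were chosen after their values were seen. Members and lists were chosen with earlier results of these data known. Same-numbered fraction libraries of different groups did not deviate together (correlations -0.0032 to 0.011), so the numbers were not taken as pairs. For input and enriched libraries this was not computed. Of 32 pairs of libraries within a group and set, 5 could not be told apart from resampled tags and 4 of them were also counted once. Alternatives covered the pseudocount, the filter, the tool, the library total, the replicate block, the library set and each library left out. Peak sequences are not shown, and not every called list member is named.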

Additional observations from a re-analysis of the deposited data

Results flagged for a closer look

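The 5'UTR and 3'-end peaks were examined in each group of 4 to 10 samples that held tags, 9 combinations of peak and group. In 5 of them 1 sample lay far from the others by Dixon's ratio. Chance gives about 1 in 20 for continuous values, a rate that does not apply here: each case rests on 1 or 2 tags, and in 4 of them every other sample was at 0, which by itself gives a ratio of 1. In the 5'UTR peak, APEX-G3BP1 mock input library 2 stood at 4.74 CPM with the other 3 at 0. APEX-G3BP1 mock enriched library 6 stood at 2.12 CPM with the other 5 at 0. The near-identical APEX-G3BP1 arsenite enriched libraries 4 and 5, counted as 1, averaged 35.6 CPM with the other 5 samples at 0. In the 3'-end peak, APEX-G3BP1 mock enriched library 3 stood at 67.8 CPM with the others between 0 and 16.9 CPM. APEX-NES mock enriched library 1 stood at 26.4 CPM with the other 3 at 0.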

How the results depend on the processing

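The nuclear 5'UTR difference of 2.57 was called under all 6 other settings (log2 1.45 to 3.30) and ran from 2.40 to 2.69 with 1 library left out, called in 2 of those 6 fits. The cytoplasmic 5'UTR difference of 2.82 became 3.43 with a pseudocount 4 times smaller, 1.81 with one 4 times larger, 3.49 in edgeR and 1.65 with tags in peaks as the total, and 2.55 to 3.03 with 1 library left out. The limma fits with tags in peaks as the total also took a pseudocount of 3.0e-05 of those tags. The cytoplasmic fold of means was 11.7 with that total and 11.6 with the library total. The 3'-end difference between fractions in mock lost its call at -1.30 (smaller pseudocount), -0.86 (larger), -1.18 (no filter) and -0.73 (tags in peaks), with -1.31 to -1.08 for left-out libraries; in arsenite it ran from -0.47 to -0.20. The replicate block gave 2.57 for the nuclear 5'UTR peak (limma adjusted p 0.0025), and ended 2 calls: the mock 3'-end peak (-1.18) and the mock intron region (1.04).

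Without 1 library, the input 5'UTR limma difference ran from 0.14 to 0.49 in the 13 of 17 left-out fits that the peak entered. The enriched 3'-end difference ran from 0.29 to 0.72. None of these was called. The input and enriched 5'UTR mean differences ran from 0.81 to 2.01 and from -0.15 to 7.48 CPM. Beside the 3'-end CPM differences of the inputs and enriched libraries, whose turns are given with them, signs turned without a call for the enriched 3'-end peak and region within JL0388 (-0.56), the input and enriched 5'UTR CPM differences within JL1024 (-0.51 and -0.35), the enriched one without APEX-G3BP1 arsenite library 5 (-0.15) and the input intron region within JL0361 (-0.31). In the nucleus, intron peak 3 gave -0.034 without mock library 3 (left-out range -0.034 to 0.34), and the intron region 0.013 without mock library 2 (range -0.28 to 0.013). Between fractions in arsenite the intron region gave -0.0027 without cytoplasmic library 1 (range -0.0027 to 0.60). With 1 library left out, the cytoplasmic 3'-end difference reached 0.027 and the mock difference of the 5'UTR peak between fractions 0.12. For all of these turns the cause was not tested.

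Counts of called peaks depended strongly on the setting. The nuclear count of 372 was 150 with the smaller pseudocount and 865 without a filter, the cytoplasmic 1473 reached 6762 with the smaller pseudocount, and leaving out 1 library gave 1 to 8614 and 0 to 16959. The mock fraction count of 4437 ran from 2943 to 6759 (0 to 16620 left out), and the arsenite count of 608 from 303 to 1549 (0 to 57). Called regions with 1 library left out numbered 54 to 910 (nuclear, 1361 with all), 480 to 2977 (cytoplasmic, 3047), 3840 to 5156 (mock fractions, 6155) and 155 to 817 (arsenite fractions, 1187), and the list counts were not recomputed for these. The input count of 0 reached 276 in edgeR, and the enriched 11 fell to 0 to 10 (0 to 41 left out). Most APEX libraries held under 3 POLR2A tags in the 5'UTR peak, which limits what they can show.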
